A study of Homo sapiens with 6 samples.

Results

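DNA repair genes were followed across the ESC and NSC stages of human embryonic stem cell cultures. The set holds 47 genes chosen by name from the main repair pathways: homologous recombination (12 genes), the Fanconi anaemia pathway (9), mismatch repair (4), nucleotide excision (6), base excision (7), end joining (5) and the kinases that signal DNA damage (4). Of the 18665 genes with a probe on the array, these are 44, on 82 probes. No probe of BRCA2, FANCA or FANCD2 was listed, and for XPA, XRCC4 and ATR each listed probe fell short of the rule for testing, so that 41 genes were tested, on 61 probes. Messenger RNA was measured on 6 Illumina Human-6 beadchips, 1 per culture, in 3 NSC and 3 ESC cultures. NSC cultures were neural stem cells, for H1 by adherent differentiation in neural medium with bFGF and for HSF1 and HSF6 by separate differentiation at UCLA, and ESC cultures were the undifferentiated cells, each stage sampled in the established lines H1, HSF1 and HSF6. H1 was grown feeder free at Rutgers and showed genome duplications on chromosomes 12 and 17 in a preliminary assessment given in the methods, whereas HSF1 and HSF6 were grown at UCLA, so the line and the place of culture cannot be told apart. Each line gave a single culture per stage, and every p-value below measures the spread between these lines.

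Cells repair their DNA by several routes that share few proteins. Homologous recombination copies an intact sister strand and works in S and G2 phase, the Fanconi anaemia proteins release cross-linked strands, and mismatch repair corrects errors of the replication fork. Nucleotide excision cuts out bulky lesions, base excision removes single damaged bases, and end joining seals breaks without a template at any point of the cycle. Embryonic stem cells are known for a short G1 phase and for abundant repair proteins.

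Embryonic stem cell markers and the summed signal of neural stem cell markers followed the stage labels. The H1 NSC culture stood apart from those of HSF1 and HSF6. Embryonic stem cell markers had a summed background-corrected signal of 462.3 to 1146 in NSC and 45140 to 67880 in ESC, over 11 genes, and POU5F1 and ZFP42 were at background on all 3 NSC arrays. Neural stem cell markers (11 genes) summed to 37270 in H1, 54660 in HSF1 and 53630 in HSF6 in NSC, and to 11320 to 20360 in ESC. In H1 NSC 7 of these 11 genes were above background, against 10 in each HSF NSC culture and 8 in each ESC culture. Neuron markers (12 genes) summed to 24790 and 29120 in NSC of HSF1 and HSF6 but to 3818 in H1 NSC, within the range of 3168 to 4000 in ESC. Markers of mesenchymal cells (12 genes, among them COL3A1, DCN and POSTN) also summed higher, at 160300 in H1 NSC, the highest, 43070 in HSF1 NSC, 75230 in HSF6 NSC and 7757 to 18560 in ESC, with 8 of 12 called higher in NSC and 0 lower. The stage effect on INA, a neuron marker, differed between H1 and the HSF lines (H1 effect minus HSF effect -6.09 ± 0.54 (SE), adjusted p = 0.040, limma). In bulk RNA, fewer cells of a type cannot be told from less RNA per cell, and the part that these other cells play in the results below was not tested.

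Repair transcripts were lower in NSC where they differed. Of the 41 genes tested, 10 were called lower in NSC and 0 higher by limma at an adjusted p under 0.05 and at least 1.5-fold. The lower calls are 24.4% of the members tested, against 12.4% of all 10974 genes tested, while 11.4% of all genes were called higher in NSC. The 10 genes are BLM, RAD54L, MRE11, XRCC3, FANCB, EXO1, UNG, LIG3, CHEK1 and CHEK2. All 10 were above background on every one of the 6 arrays and lower in NSC in each of the 3 lines. At an unadjusted p under 0.05, 15 members were lower and 1 was higher in NSC. Over the whole array 3592 of 17303 probes tested were lower at that p. This is a count of probes and not of genes, and the higher ones were not counted. The t-test that the methods name, rerun here on the background-corrected values with the same adjustment, called 9 members lower and 0 higher, against 5.43% of all genes lower. No test was made of the difference between the members' share and that of all genes.

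Over all 41 members tested, the 10 called ones included, lower levels in NSC were the more frequent. The median difference over the 41, NSC minus ESC, was -0.57 on the log2 scale, against -0.06 over all genes tested. In 18 members (43.9%) all 3 NSC signals lay below all 3 ESC signals, against 24.9% of all genes, and in 3 members (7.32%) all 3 NSC signals lay above, against 20.8% of all genes. Without the 10 called genes, 8 of 31 members (25.8%) lay below, 3 (9.68%) lay above, and the median was -0.39. The shares of all genes given above still include called genes, so they are no like comparison for these 31. On the brightest probe of each gene, a negative difference in all 3 lines was found for 22 members. A positive one in all 3 lines was found for 5, namely ATM, ERCC1, LIG4, MSH3 and XRCC2. The same counts were not made over all genes, so whether 22 and 5 are unusual cannot be read from them.

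**Figure D1:**
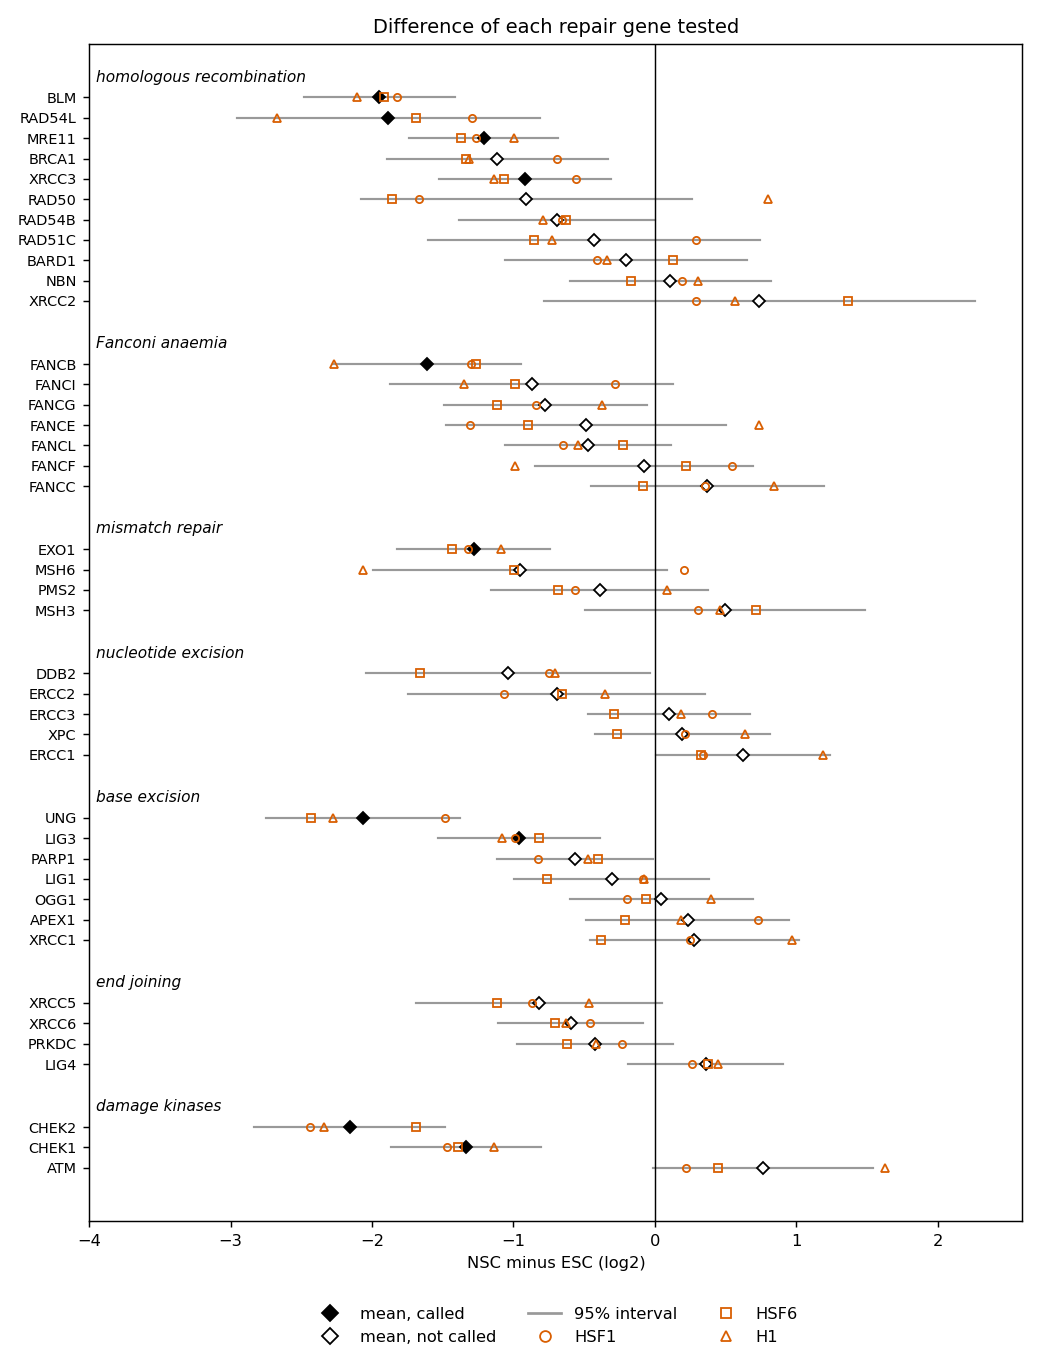
Difference of each of the 41 repair genes tested, NSC minus ESC on the log2 scale, by pathway. Diamonds mark the mean over 3 lines (filled where called), grey bars its 95% interval from limma, and orange symbols the difference within each line; the 10 filled diamonds all lie left of 0.

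The calls rested on few cultures. Leaving out 1 array at a time left 6 to 9 members called lower, as were 4.67% to 12% of all genes. The fewest members, 6, and the 4.67% of all genes both came without the HSF6 NSC array. Without both HSF1 arrays 0 members were called lower, as were 0.975% of all genes, and without both HSF6 arrays only CHEK2 was, as were 1.56% of all genes. Without the H1 NSC array 9 members were called lower, as were 12% of all genes. Without both H1 arrays 11 members were, as were 12.4% of all genes.

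In homologous recombination, 4 of 11 genes tested were lower in NSC (36.4%, against 12.4% of all genes) and the median difference was -0.91. BLM, the helicase mutated in Bloom syndrome that takes apart recombination intermediates, had signals of 266, 303 and 293 in NSC (H1, HSF1 and HSF6, in this order throughout) and 777, 788 and 795 in ESC. These are the deposited intensities, which still contain a background of about 127, whereas the differences below were computed after removing it. The ESC cultures were nearly alike and stood far above each NSC culture, a difference of -1.95 ± 0.23 (SE), or 3.86-fold lower in NSC (adjusted p = 0.0029, limma). The BLM promoter (chr15:90717096-90717395, + strand, RefSeq, GRCh38.p14) is shown because it holds 3 CCAAT boxes, here in capitals in either orientation, at positions -141, -46 and -21 from the start.
BLM: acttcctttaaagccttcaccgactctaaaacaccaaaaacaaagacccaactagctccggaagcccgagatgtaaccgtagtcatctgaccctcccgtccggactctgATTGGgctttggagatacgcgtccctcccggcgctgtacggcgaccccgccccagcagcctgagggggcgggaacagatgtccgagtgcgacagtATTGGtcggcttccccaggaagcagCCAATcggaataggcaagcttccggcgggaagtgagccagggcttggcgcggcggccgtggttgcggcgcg

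RAD54L, a motor protein of strand exchange, had signals of 153, 250 and 224 in NSC and 378, 450 and 472 in ESC. Its groups did not overlap, and the H1 NSC culture was lowest, close to background. The difference was -1.88 ± 0.46, or 3.69-fold lower in NSC (adjusted p = 0.027, limma). Leaving out any 1 ESC array, or the HSF6 NSC array, ended this call, as did testing every dim probe and the methods' t-test (adjusted p = 0.11).

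MRE11, the nuclease that trims broken ends within the complex of MRE11, RAD50 and NBN, had signals of 258, 250 and 245 in NSC and 403, 443 and 457 in ESC. Neither stage varied much, and the difference was -1.21 ± 0.23, or 2.31-fold lower in NSC (adjusted p = 0.012, limma). Of the other probes of MRE11, one was also called lower (-0.93 ± 0.26, adjusted p = 0.040) and one differed by 0.20 ± 0.29 (adjusted p = 0.63), with signals of 160 to 196 in NSC and 170 to 173 in ESC. The call was lost without the HSF6 NSC array and when the probes were averaged. The partners of MRE11 did not pass the test. NBN differed by 0.11 ± 0.30 (adjusted p = 0.81, limma), with a 95% interval of -0.60 to 0.82. RAD50 had signals of 229, 162 and 167 in NSC and 179, 271 and 312 in ESC, so that both HSF lines were lower in NSC and H1 was higher. Its mean difference was -0.91 ± 0.50 (adjusted p = 0.22, limma).

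XRCC3, which acts in strand exchange, had signals of 155, 161 and 165 in NSC and 208, 185 and 222 in ESC. The groups did not overlap, but all 6 values lay near background. The difference of -0.92 ± 0.26 (1.89-fold lower in NSC, adjusted p = 0.043, limma) was the weakest call of the 10: it was called under 3 of 18 other settings, and with the cell line as a block its adjusted p was 0.055. BRCA1, which recruits the recombination machinery, was just outside the threshold. It had signals of 160, 214 and 170 in NSC and 233, 276 and 258 in ESC, again without overlap, and a difference of -1.11 ± 0.33 (adjusted p = 0.051, limma). With the cell line as a block its adjusted p was 0.038.

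XRCC2, which also acts in strand exchange, gave opposite signs on its probes. The brighter probe had signals of 1037, 3404 and 2343 in NSC and 737, 2805 and 977 in ESC, which overlap, and differed by 0.74 ± 0.65 (adjusted p = 0.43, limma). The dimmer probe had signals of 141.8, 160 and 146 in NSC and 171, 197 and 189 in ESC, all near background, and was called lower in NSC (-0.94 ± 0.28, adjusted p = 0.048). Which of the probes follows the gene was not tested. The other members of the pathway, RAD54B, RAD51C and the BRCA1 partner BARD1, had negative differences that did not pass.

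**Figure D2:**
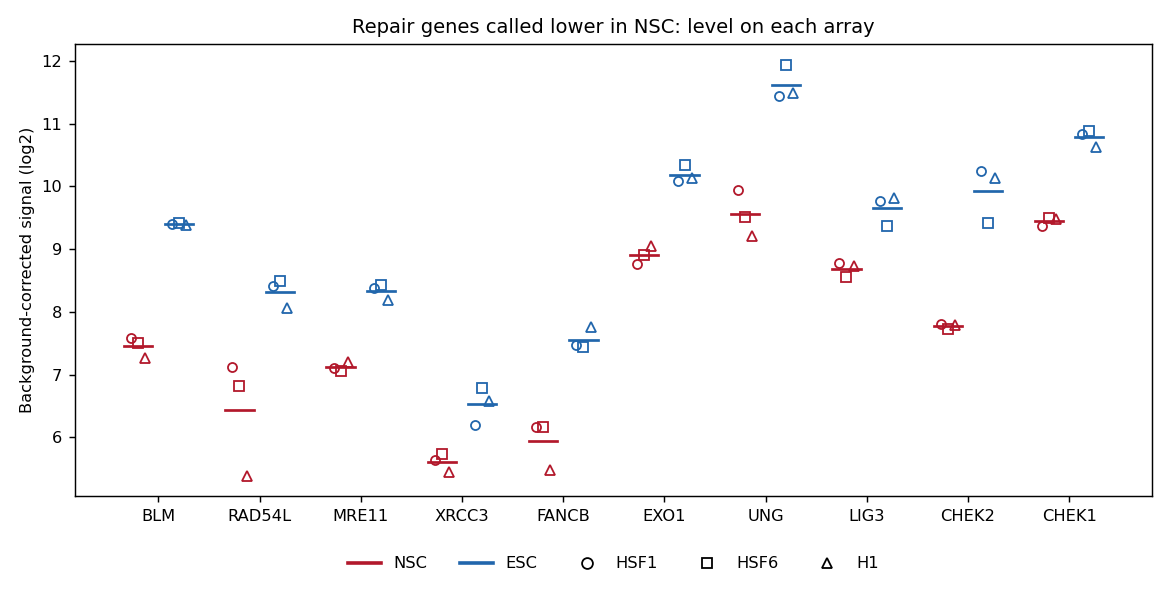
Level of the 10 repair genes called lower in NSC on each array, as background-corrected signal on a log2 scale (y axis), NSC in red left of ESC in blue, with the line given by the symbol and the mean by a bar. No gene overlaps between stages; the H1 NSC culture is the lowest for BLM, RAD54L, XRCC3, FANCB and UNG, and levels of different genes come from different probes and are not comparable.

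In the Fanconi anaemia pathway, 1 of 7 genes tested was lower in NSC (14.3%, near the 12.4% of all genes) and the median difference was -0.49. FANCB, a part of the core complex that marks stalled forks, had signals of 156, 183 and 183 in NSC and 327, 289 and 284 in ESC. The stages did not overlap, and H1 showed the widest gap. The difference was -1.61 ± 0.28, or 3.06-fold lower in NSC (adjusted p = 0.010, limma). Its NSC signals lay near background, and without background correction the difference was -0.78. The second probe of FANCB was called too (-1.19 ± 0.25, adjusted p = 0.018, limma). FANCI, which is ubiquitinated together with FANCD2, had the next largest difference at -0.87 ± 0.43 (adjusted p = 0.18), followed by FANCG of the core complex at -0.77 ± 0.31 (adjusted p = 0.11). FANCF, the adaptor of the core complex, differed by -0.08 ± 0.33 (95% interval -0.85 to 0.69), and FANCC, also of that complex, by 0.37 ± 0.35, with 2 of its 3 ESC signals above background. The remaining 2 tested, FANCE and the ubiquitin ligase FANCL, did not pass.

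Mismatch repair had 1 lower call among 4 genes tested (25%, against 12.4% of all genes) and a median difference of -0.67. EXO1, the exonuclease that removes the strand holding the mismatch, had signals of 639, 546 and 590 in NSC and 1232, 1196 and 1404 in ESC. Each line gave about the same gap, and the difference was -1.28 ± 0.23, or 2.43-fold lower in NSC (adjusted p = 0.011, limma). A second, dimmer probe of EXO1 differed by -0.93 ± 0.33 without passing (adjusted p = 0.080). The upstream EXO1 promoter (chr1:241847954-241848253, + strand, RefSeq, GRCh38.p14) is shown because it holds the letters TTTCGCGC, an E2F motif, at position 5 after the start, in capitals. It holds no CCAAT box.
EXO1: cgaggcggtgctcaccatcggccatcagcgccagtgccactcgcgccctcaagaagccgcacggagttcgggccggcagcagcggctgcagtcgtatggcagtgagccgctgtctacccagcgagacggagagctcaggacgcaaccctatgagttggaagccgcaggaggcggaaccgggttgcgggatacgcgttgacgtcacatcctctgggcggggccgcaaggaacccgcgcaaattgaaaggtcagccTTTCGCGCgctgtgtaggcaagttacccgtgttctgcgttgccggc

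MSH6, which reads single mismatches, had signals of 1834, 5443 and 3826 in NSC and 7329, 4735 and 7520 in ESC. H1 and HSF6 were lower in NSC while HSF1 was not, and the mean difference of -0.95 ± 0.45 did not pass (adjusted p = 0.16, limma). MSH3, which reads longer loops, differed by 0.49 ± 0.42 (adjusted p = 0.42, limma) and was higher in NSC in all 3 lines on its brightest probe. Its second probe differed by 0.43 ± 0.34 (adjusted p = 0.39, limma) and was lower in NSC in HSF1. PMS2, which nicks the strand to be removed, differed by -0.39 ± 0.33 (adjusted p = 0.42).

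Nucleotide excision had 0 calls among 5 genes tested by limma and by the methods' t-test, with 1 lower (DDB2) and 1 higher (ERCC1) at an unadjusted p under 0.05. With 12.4% of all genes called lower by limma, 0 calls among so few genes do not set this pathway apart. Its median difference was 0.10. DDB2, a sensor of ultraviolet damage, had signals of 117, 146 and 144 in NSC and 146, 171 and 219 in ESC. It was tested because of its ESC signals, as only 1 NSC signal was above background, and differed by -1.04 ± 0.43 (adjusted p = 0.12, limma). ERCC1, which cuts on the 5′ side of a lesion together with ERCC4, had signals of 1537, 1207 and 1177 in NSC and 736, 976 and 959 in ESC. The stages did not overlap, and H1 showed the largest gap. The difference was 0.62 ± 0.26 (adjusted p = 0.13, limma), and the other tested probes of ERCC1 gave 0.62 ± 0.30 and 0.98 ± 0.29, the second with an adjusted p of 0.051, or 0.049 with the cell line as a block, which called that probe higher in NSC. ERCC3, a helicase of TFIIH, differed by 0.10 ± 0.25 (95% interval -0.47 to 0.68), and the sensor XPC by 0.20 ± 0.26 (95% interval -0.42 to 0.81). The other helicase of TFIIH, ERCC2, did not pass.

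XPA, which checks the opened lesion, was not tested. Its signals were 122, 161 and 164 in NSC and 128, 126 and 129 in ESC, so that it was above background in the NSC cultures of HSF1 and HSF6 alone. Without the H1 NSC array, or without both H1 arrays, XPA was tested because of its NSC signals and called higher in NSC. As its ESC signals were at background, the filter allowed only this direction. With no filter on dim probes and all 6 arrays kept, XPA was not called. No other member was called higher on its brightest probe in any setting.

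Base excision had 2 lower calls among 7 genes tested (28.6%, against 12.4% of all genes) and a median difference of -0.31. UNG, the glycosylase that removes uracil from DNA, had signals of 706, 1101 and 842 in NSC and 2987, 2884 and 4052 in ESC. The highest NSC signal was well under the lowest ESC signal, and the difference was -2.06 ± 0.29, or 4.18-fold lower in NSC (adjusted p = 0.0052, limma). UNG lies on chromosome 12, for which the methods give a preliminary finding of duplication in H1, and its ESC signal in H1 lay between those of HSF1 and HSF6. A pair of further UNG probes was at background. UNG has a start for its mitochondrial form and one for its nuclear form, and the measured probe was not tied to either. The downstream promoter in the table (chr12:109097922-109098221, + strand, RefSeq, GRCh38.p14) is shown because it holds CCAAT boxes and an E2F motif, with CCAAT boxes at positions -176, -145 and -104 and the E2F letters TTTGCCGC at -63, all in capitals. It also holds a CHR motif (TTCAAA at -226), left in lower case.
UNG: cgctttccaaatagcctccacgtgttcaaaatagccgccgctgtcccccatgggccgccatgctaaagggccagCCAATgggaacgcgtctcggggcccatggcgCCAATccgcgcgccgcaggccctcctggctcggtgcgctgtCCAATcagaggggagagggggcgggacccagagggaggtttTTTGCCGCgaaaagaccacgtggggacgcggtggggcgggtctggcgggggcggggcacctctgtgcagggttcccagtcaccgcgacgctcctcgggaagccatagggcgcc

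LIG3, the ligase that closes the nick together with XRCC1, had signals of 536, 552 and 487 in NSC and 1009, 984 and 774 in ESC. The stages did not overlap, and the difference was -0.96 ± 0.25, or 1.95-fold lower in NSC (adjusted p = 0.032, limma). A second probe was called as well (-0.89 ± 0.23, adjusted p = 0.033, or 0.054 with the cell line as a block), although leaving out the HSF1 or H1 ESC array, or either HSF NSC array, ended the call of the first. LIG3 lies on chromosome 17, as do BRCA1 and RAD51C. Among the 3 lines, the ESC signal in H1 was the highest for LIG3, the lowest for BRCA1 and in between for RAD51C. PARP1, which senses nicks, had signals of 5186, 5058 and 6079 in NSC and 7149, 8874 and 8000 in ESC. It was lower in NSC without overlap, but by less than 1.5-fold and without passing (-0.57 ± 0.24, adjusted p = 0.12, limma). OGG1, the glycosylase for oxidised guanine, differed by 0.05 ± 0.28 (95% interval -0.60 to 0.70). APEX1, the nuclease that opens the emptied site, differed by 0.23 ± 0.31 on its brighter probe and by -0.48 ± 0.32 on the other, neither past the test. The scaffold XRCC1 differed by 0.28 ± 0.32, and the ligase LIG1 did not pass. Taken with nucleotide excision, excision repair had 2 lower calls among 12 genes (16.7%, against 12.4% of all genes) and a median difference of -0.13.

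End joining had 0 calls among 4 genes tested by limma, 1 lower at an unadjusted p under 0.05 and 1 lower under the methods' t-test (XRCC6 in both), and a median difference of -0.51. Against 12.4% of all genes called lower by limma, 0 calls among so few genes do not set end joining apart. XRCC6 and XRCC5 form the Ku ring that grips broken ends. XRCC6 had signals of 2839, 2994 and 2744 in NSC and 4316, 4064 and 4400 in ESC, without overlap, and differed by -0.59 ± 0.22 (adjusted p = 0.092, limma). Its second probe was called lower in NSC (-0.87 ± 0.23, adjusted p = 0.036, or 0.059 with the cell line as a block), and under the methods' t-test the first had an adjusted p of 0.022. XRCC5 differed by -0.82 ± 0.37 (adjusted p = 0.15), and PRKDC, the kinase that Ku recruits, by -0.42 ± 0.24 (adjusted p = 0.23). The other probes of PRKDC gave -0.70 ± 0.24 and -1.29 ± 0.43, with adjusted p-values of 0.071 and 0.070; with the cell line as a block the second had an adjusted p of 0.025. LIG4, the ligase of the pathway, was higher in NSC in each line on its brightest probe and did not pass (0.36 ± 0.23, adjusted p = 0.29, limma). Its second tested probe differed by 0.80 ± 0.52 (adjusted p = 0.30, limma) and was lower in NSC in H1. XRCC4, the partner of LIG4, had signals of 131 to 135 in NSC and 143 to 145 in ESC, all at background.

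Among the damage kinases, 2 of 3 genes tested were lower in NSC (66.7%, against 12.4% of all genes). CHEK2, the checkpoint kinase that ATM activates at double-strand breaks, had signals of 333, 336 and 324 in NSC and 1231, 1329 and 798 in ESC. NSC cultures were closely alike, and the lowest ESC signal, in HSF6, was still far above them. The difference of -2.16 ± 0.29, or 4.46-fold lower in NSC, was the largest of all members tested (adjusted p = 0.0044, limma), and a second probe was also called (-1.96 ± 0.27, adjusted p = 0.0045). CHEK1, the kinase that ATR activates at stalled forks, had signals of 830, 775 and 835 in NSC and 1693, 1948 and 2009 in ESC. Again each stage was tight, with a difference of -1.33 ± 0.23, or 2.52-fold lower in NSC (adjusted p = 0.0093, limma). Their promoters are shown because each holds 3 CCAAT boxes, in capitals. Those of CHEK1 (chr11:125626106-125626405, + strand, RefSeq, GRCh38.p14, the last of 3 starts listed) are at positions -232, -26 and -12, and those of CHEK2 (chr22:28741771-28742070, - strand, written 5′ to 3′ along the gene) at -199, -70 and -40.
CHEK1: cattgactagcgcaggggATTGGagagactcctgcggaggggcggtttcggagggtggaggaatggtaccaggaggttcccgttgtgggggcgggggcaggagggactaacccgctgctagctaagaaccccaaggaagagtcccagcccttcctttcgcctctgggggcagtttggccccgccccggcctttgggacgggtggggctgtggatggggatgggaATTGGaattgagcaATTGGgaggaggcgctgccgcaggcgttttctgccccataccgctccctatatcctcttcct
CHEK2: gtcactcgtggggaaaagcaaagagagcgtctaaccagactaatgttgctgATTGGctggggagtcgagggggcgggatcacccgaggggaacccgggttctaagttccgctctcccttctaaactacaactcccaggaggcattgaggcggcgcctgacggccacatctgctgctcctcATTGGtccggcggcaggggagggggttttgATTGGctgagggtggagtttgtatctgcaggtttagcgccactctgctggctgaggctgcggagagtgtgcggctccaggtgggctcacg

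ATM, which stands above CHEK2, went the other way without passing. Its signals were 884, 721 and 669 in NSC and 361, 633 and 521 in ESC, with no overlap and the largest gap in H1, and it differed by 0.77 ± 0.33 (adjusted p = 0.14, limma). A second probe of ATM gave 0.26 ± 0.29 (adjusted p = 0.54). ATR had 4 probes, and of these only 1 exceeded the background limit on any array (HSF1 ESC, a signal of 146), so that none was tested.

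Several genes could be read on more than 1 probe. Among the 16 members with several tested probes, 13 had the same sign on each, 3 were called on every probe (FANCB, LIG3 and CHEK2), and the call differed between probes for 4 (MRE11, XRCC2, EXO1 and XRCC6). Over all 61 member probes tested, 16 were called lower in NSC and 0 higher, against 11.9% lower and 10.4% higher of all probes tested. With the cell line as a block these counts were 15 lower and 1 higher, the ERCC1 probe named above.

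**Figure D3:**
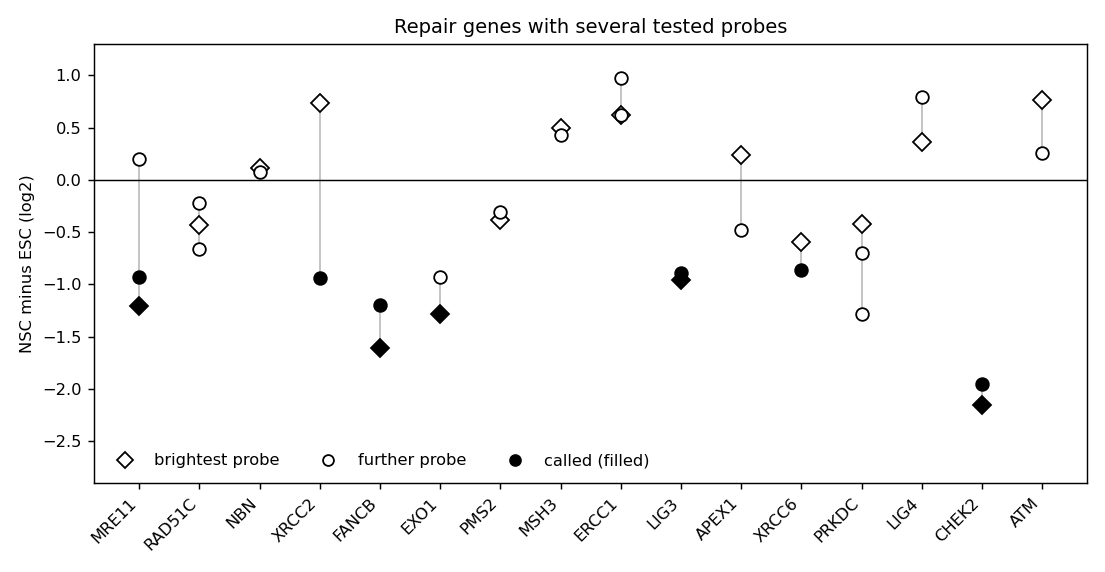
Difference, NSC minus ESC on the log2 scale (y axis), of each tested probe of the 16 repair genes with more than 1. The diamond is the brightest probe, which stands for the gene, circles are further probes and filled symbols were called; the probes of MRE11, XRCC2 and APEX1 lie on both sides of 0.

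The stage effect in H1 was set against that in the HSF lines. The interaction test passed 0 of 41 members at an adjusted p under 0.05 (limma) and 6 at an unadjusted p under 0.05, and it passed 0.26% of all probes tested. With 1 H1 array per stage this test has little power. The largest interaction among members was that of RAD50, at 2.57 ± 0.44 for the H1 effect minus the HSF effect (adjusted p = 0.089, limma). RAD50 and FANCE were higher in NSC in H1 (0.80 and 0.74 on the log2 scale), whereas in HSF1 and HSF6 the differences were -1.67 and -1.86 for RAD50 and -1.31 and -0.90 for FANCE. FANCF ran the opposite way, at -0.99 in H1 against 0.54 in HSF1 and 0.22 in HSF6.

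The letters of the promoters were compared with those of all genes, as a description. RefSeq promoters of 300 bases (250 before and 50 after the start, GRCh38.p14) were found for 42 of the 47 members, among them all 10 called genes. An E2F motif (TTTCCCGC, TTTCGCGC, TTTGCCGC or TTTGGCGC, on either strand) was present in 12 of these 42 (28.6%), against 3.99% of 27305 genes with a promoter. Of the 10 called genes 2 held it (UNG and EXO1), against 8 of 26 members that were tested and not called. A CCAAT box (CCAAT on either strand) was present in 7 of the 10 called genes (BLM, RAD54L, MRE11, XRCC3, UNG, CHEK1 and CHEK2), in 13 of 26 members not called, and in 39.7% of all genes. In the last 150 bases of the window the counts were 7 of 10 and 10 of 26, against 25.3% of all genes. The CHR motif of cell cycle genes (TTTGAA or TTCGAA, either strand) was present in 1 of the 10 called genes (UNG) and in 19.5% of all genes. The motifs were searched separately, so that matches may overlap, and a match is not a bound site.

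Genes outside the set were read from fixed lists of the same pathways. Together these lists had 105 genes tested, of which 17 (16.2%) were lower and 1 was higher in NSC, with a median difference of -0.40. The share lower lies near the 12.4% of all genes, and the methods' t-test called 10 of the 105 lower and 0 higher. Other mismatch repair genes had 3 of 13 lower, namely RFC3 (-1.35 ± 0.26, adjusted p = 0.014) and RFC4 (-1.21 ± 0.28, adjusted p = 0.022), parts of the clamp loader, and POLD1 (-1.02 ± 0.29, adjusted p = 0.043), a replicative polymerase. Other nucleotide excision genes had 4 of 21 lower, with CDK7 (-2.08 ± 0.25, adjusted p = 0.0031) and GTF2H2 (-1.85 ± 0.30, adjusted p = 0.0082) of TFIIH, which also starts transcription, and POLE2 (-1.58 ± 0.26, adjusted p = 0.0081), a subunit of a replicative polymerase.

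Other homologous recombination genes had 3 of 23 lower (13%, near the 12.4% of all genes). These were SLX1A, RPA3 and WRN, with differences of -1.11 ± 0.26, -1.02 ± 0.30 and -0.99 ± 0.28. Other base excision genes had 1 of 17 lower (5.88%, under the share of all genes), the glycosylase NTHL1 (-1.28 ± 0.23, adjusted p = 0.011). Other end joining genes had 2 of 7 lower (28.6%), MAD2L2 (-1.72 ± 0.26, adjusted p = 0.0061) and RIF1 (-0.92 ± 0.24, adjusted p = 0.035), which both steer breaks towards end joining. Among other Fanconi genes 0 of 10 were called in either direction, against 12.4% lower and 11.4% higher of all genes. In that list 1 was lower at an unadjusted p under 0.05 and 0 were called by the methods' t-test. Other damage signalling genes had 4 of 14 lower (28.6%) and 1 higher (7.14%). CDC25A, the phosphatase that drives entry into S phase and is removed after CHEK1 acts on it, differed by -2.03 ± 0.29 (adjusted p = 0.0052), TIPIN of the fork protection complex by -2.01 ± 0.37 (adjusted p = 0.012) and CDC25C by -1.36 ± 0.29 (adjusted p = 0.018). CDC25B, a related phosphatase, was higher in NSC, by 1.63 ± 0.39 (adjusted p = 0.026, limma for all).

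Genes of the cell cycle moved with the repair genes. Of 29 S phase genes tested, 11 (37.9%) were lower in NSC and 0 higher, with a median of -0.99; CCNE1 (-2.40 ± 0.39, adjusted p = 0.0078), CHAF1A (-2.30 ± 0.28, adjusted p = 0.0033) and PRIM1 (-2.18 ± 0.43, adjusted p = 0.014) had the largest differences. Of 26 G2 and mitosis genes, 10 (38.5%) were lower and 1, CENPF, was higher (1.17 ± 0.27, adjusted p = 0.024), with a median of -0.84; BUB1 (-2.23 ± 0.43, adjusted p = 0.014) led the lower ones. The summed background-corrected signal of 32 S phase genes was 27520 to 33140 in NSC and 43050 to 58350 in ESC, and that of 26 G2 and mitosis genes was 25320 to 35600 in NSC and 43030 to 50920 in ESC. In neither list did the stages overlap, and the part of cell cycle activity in the lower repair transcripts was not tested. Under the methods' t-test, 9 of 41 repair members, 2 of 29 S phase genes and 3 of 26 G2 and mitosis genes were called lower, against 5.43% of all genes, and the difference between these shares was not tested.

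**Figure D4:**
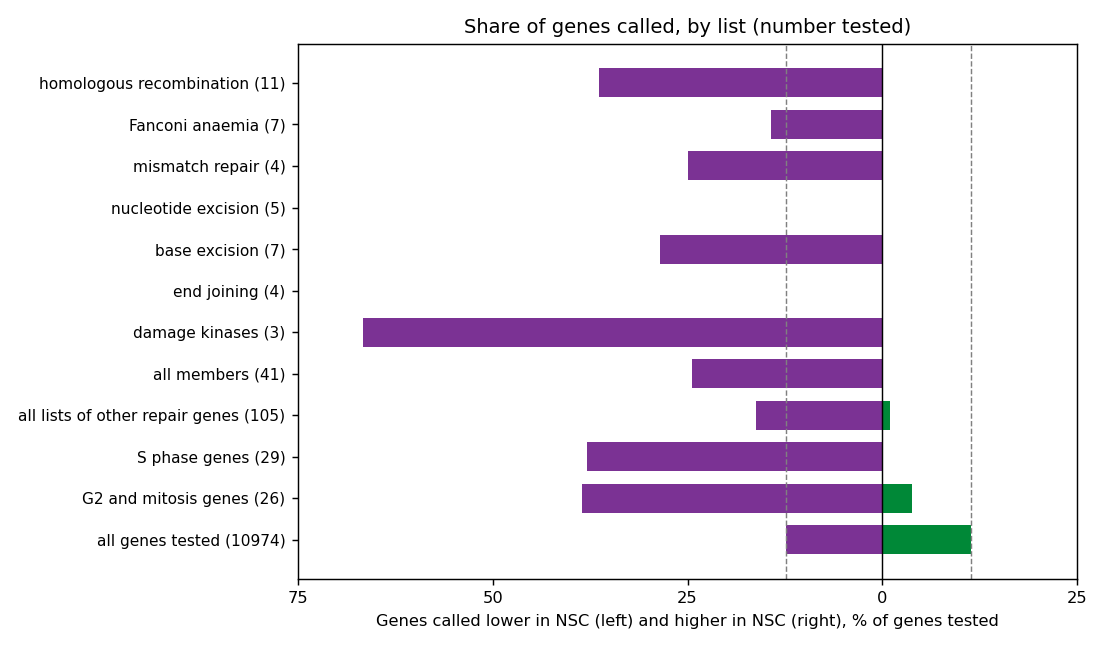
Share of genes called lower (left, purple) and higher (right, green) in NSC, in % of the genes tested in each list, with the number tested in parentheses; dashed lines mark the shares over all genes, 12.4% lower and 11.4% higher. Only the lists of other repair genes and of G2 and mitosis genes, beside all genes, have a bar on the right.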

How the data were processed

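Messenger RNA was measured on 6 Illumina arrays, 3 NSC and 3 ESC, grouped by the stage in the sample labels. The deposited values are intensities on a linear scale, made by the authors with BeadStudio according to the submitters' processing notes. The values show a common distribution over the arrays (quantile normalized) and no background subtraction. A further table, whose 24 per-array columns could be matched to no sample, was not used.

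Background was taken as the mode of the deposited signals (127, SD 11.2) and removed with the normexp model of limma 3.58.1 in R 4.3.3, 16 was added and log2 taken. Of 48803 probes, 17303 were tested, those above 146 (mean plus 1.64 SD, a limit probability of 0.05) on all 3 arrays of at least 1 stage. NSC and ESC were compared with lmFit and eBayes without covariates, and probes were called at an adjusted p (Benjamini-Hochberg, over all probes) under 0.05 and at least 1.5-fold, 3858 in all. Differences are given with the standard error of limma. The brightest tested probe, by mean signal, stands for its gene. A platform annotation gave 1 symbol to 27578 probes, several to 13 and none to 21212. Arrays carry no count depth, and their number limits the precision. The scripts were tested on simulated data.

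ESC and NSC arrays of a line share its label and form pairs. The main fit did not use these pairs, and the fit with the cell line as a block did. Within pairs, deviations from the stage means correlated at 0.23 (HSF1), 0.10 (HSF6) and 0.17 (H1). The blocked fit called 3950 probes.

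Every member is accounted for. Called members are given on every array, and of those not called at most 4 per pathway, with the largest and smallest differences and those whose probes disagree; from other lists at most 3 called genes in each direction. RAD50, FANCE, XPA, XRCC4 and ATR were added after their values were seen. Members and lists were chosen with earlier results of these data known. Alternatives tried were the offset, background correction, filter, test, block, probe choice and each array or line left out.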

Additional observations from a re-analysis of the deposited data

Results flagged for a closer look

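Among the genes read here, the stage effect differed between H1 and the HSF lines by the interaction test of limma for 2 probes, both of marker genes and neither of a repair gene. INA differed by -3.36 in H1, 2.24 in HSF1 and 3.20 in HSF6 (NSC minus ESC, log2), an H1 effect minus HSF effect of -6.09 ± 0.54 (SE, adjusted p = 0.040). A further probe of DCN differed by 5.15 in H1, 0.24 in HSF1 and 0.26 in HSF6, an effect difference of 4.91 ± 0.42 (adjusted p = 0.040), while its brightest probe gave 3.42 without passing (adjusted p = 0.089). The spread of this test comes from the HSF lines alone.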

How the results depend on the processing

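The count of members called lower in NSC was 9 to 11 under every alternative that kept all 6 arrays (offset of 50, no background correction, no filter, a filter on the mean signal, the methods' t-test, an intensity trend, the cell line as block, the mean over a gene's probes and, chosen after seeing the data, raising low values to the limit), and 0 members were called higher. In these settings the share of all genes called lower ran from 5.13% (no filter) to 12.6% (an intensity trend). It was not counted for the mean over a gene's probes. BLM, CHEK1, EXO1, FANCB and UNG were called in 16 of 18 settings and CHEK2 in 17. With the cell line as a block, 10 members were lower and 0 higher, BRCA1 replacing XRCC3, and 3950 probes were called; the block changed no other call of a member's brightest probe. The methods' t-test, rerun here after the background correction and filter, called 1507 probes over the whole array, against 3858. The study itself focused on a far smaller set of genes from its own t-test, so the rerun is not the study's result. Leaving out arrays gave 0 to 11 members lower, 0 to 1 higher and 333 to 4560 probes called. Without both arrays of a line, 2 arrays per stage remain. In these fits the differences of members near 0 changed sign, between -0.03 and 0.46 for APEX1, -0.49 and 0.09 for BARD1, -0.05 and 0.30 for ERCC3, -0.39 and 0.38 for FANCF, -0.07 and 0.35 for NBN, -0.13 and 0.25 for OGG1, -0.03 and 0.43 for XPC, and -0.06 and 0.61 for XRCC1; none was called. In the last 150 bases of the promoters, 0 of the 10 called members held a CHR motif. For dim genes such as XRCC3, signal over background limits the values, and the size of the difference changed with the background setting. With an offset of 50 it was -1.21 for FANCB, -1.51 for RAD54L and -0.61 for XRCC3. Without background correction it was -0.78, -1.08 and -0.35, in the same order. Where a call was lost, the cause was not tested.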

Other observations

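Genes that p53 activates and genes that bypass or directly reverse damage had calls in both directions, each at a share under that of all genes. Of 14 p53 target genes tested, 1 was lower and 1 was higher in NSC, with a median difference of -0.40. These calls are 7.14% each way, against 12.4% lower and 11.4% higher of all genes. AEN, an exonuclease induced by p53, had signals of 481, 1075 and 972 in NSC and 2260, 3130 and 2067 in ESC (H1, HSF1 and HSF6). It was lower in NSC in each line (-1.79 ± 0.41, adjusted p = 0.023, limma). CDKN1A, the inhibitor of cyclin-dependent kinases that p53 induces to stop the cycle, had signals of 2490, 2867 and 3166 in NSC and 1811, 938 and 1341 in ESC. It was higher in NSC in each line, least so in H1 (1.18 ± 0.32, adjusted p = 0.038, limma).

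Of 11 genes of direct reversal and of synthesis past lesions, 1 was called lower (RAD18, at background in NSC) and 1 higher in NSC, with a median difference of -0.14. These calls are 9.09% each way, again under the 12.4% and 11.4% of all genes. REV3L, the catalytic subunit of the polymerase that extends from damaged bases, had signals of 344, 417 and 386 in NSC and 201, 226 and 212 in ESC. Its stages did not overlap, and it was higher in NSC by 1.41 ± 0.25 (adjusted p = 0.0097, limma). RAD18, the ubiquitin ligase that starts bypass, had NSC signals of 143 to 146, at background, and ESC signals of 167 to 173. It was tested because of its ESC signals, and as its NSC signals were at background, the filter allowed only this direction. Its NSC level is only a bound, so it was at least 1.65-fold lower in NSC, reckoned against the background limit on each NSC array. The call (adjusted p = 0.047, limma) comes from the main fit, without that bound, and does not test the 1.65-fold.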
